A study of Mus musculus with 6 samples.

Results

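TGF-beta ligands, receptors and SMAD proteins were followed in the pancreas of mice that had lost Ptf1a, the transcription factor that maintains acinar cell identity. The genes were taken by symbol: the ligands Tgfb1, Tgfb2 and Tgfb3, the receptors Tgfbr1 and Tgfbr2, the signal transducers Smad2, Smad3 and Smad4, the inhibitory Smad7, and the secreted target Tgfbi. Of these 10 genes, 9 were measured among the 10245 genes of the normalized count table. Tgfb2 was not analysed here.

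Whole-pancreas RNA of 6 mice was sequenced, 3 control and 3 Ptf1a cKO. Control mice had the genotype Ptf1a(CreER/+) and Ptf1a cKO mice the genotype Ptf1a(CreER/fl), in which the remaining Ptf1a allele can be deleted. In either group the tamoxifen-inducible Cre replaces Ptf1a at its own locus and is active in acinar cells, so the controls carried a single working copy of Ptf1a, and according to the study's methods inducible-Cre mice also carried the R26R-EYFP reporter. Mice of either group received tamoxifen by gavage at 0.25 mg per g on day 0, 1 and 2 and were killed on day 14. The controls were 4 months old (1 male and 2 females) and the Ptf1a cKO mice 5 months old (1 male and 2 females), so age and genotype cannot be told apart. The model gives no deletion outside the cells that express Ptf1a and, within them, not every cell recombines. In whole-organ RNA, fewer cells of a type and less RNA per cell cannot be told apart either, and this holds for every value below.

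TGF-beta ligands are secreted in a latent complex and become active once they are released from it. Active ligand brings together the type II receptor Tgfbr2 and the type I receptor Tgfbr1, which phosphorylates Smad2 and Smad3. These join the common partner Smad4 and move to the nucleus, where Smad7 is among the induced genes and feeds back on the receptors. In the pancreas the pathway is known for activating stellate cells to deposit matrix and for restraining the growth of epithelial cells, and SMAD4 is frequently inactivated in human pancreatic ductal adenocarcinoma.

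Ptf1a itself was measured at 566, 601 and 652 normalized counts in control replicates 1, 2 and 3 and at 19.8, 70.1 and 10.2 in Ptf1a cKO replicates 1, 2 and 3, which fits the labels. A normalized count is a read count that the authors scaled to make the libraries comparable; values below follow this order of replicates. Over all 10245 genes, Ptf1a cKO gave a higher level for 1751 (17.1%) and a lower one for 1724 (16.8%) at an adjusted p under 0.05, by limma on log2 values with Benjamini-Hochberg adjustment over all genes, and the median gene differed by 0.036 on the log2 scale. This balance depended on the scaling. Digestive enzymes of the acinar list made up between 64.3% and 68.0% of gene counts in controls and between 25.9% and 49.6% in Ptf1a cKO, and with every library brought to the same total 9590 genes were higher and 129 lower, with a median gene at 1.49. With the same total taken without 28 abundant genes, namely the acinar list and all other genes over 1% of any library, the counts were 3553 and 957, with a median gene at 0.29. Ptf1a cKO replicate 3 stood apart by its lymphocyte markers and control replicate 3 by its endocrine markers, as described with the cell markers.

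Of the 9 measured genes, Tgfb3 and Tgfbr2 rose, Smad2 and Smad3 fell with the deposited scaling but were higher with every library at the same total, and Tgfb1, Tgfbr1, Smad4, Smad7 and Tgfbi did not pass the threshold. The 2 rises are 22.2% of the 9 genes against 17.1% of all genes, and the 2 falls are 22.2% against 16.8%. All 3 Ptf1a cKO values lay on the same side of all 3 control values for 5 of the 9 genes (Tgfb1, Tgfb3, Tgfbr2, Smad2 and Smad3), a share of 55.6% beside 50.8% of all genes. These shares are close to those of all genes. An exact two-sided permutation test of 3 against 3 libraries cannot give a p below 0.1, and it gave 0.1 for these 5 genes.

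**Figure D1:**
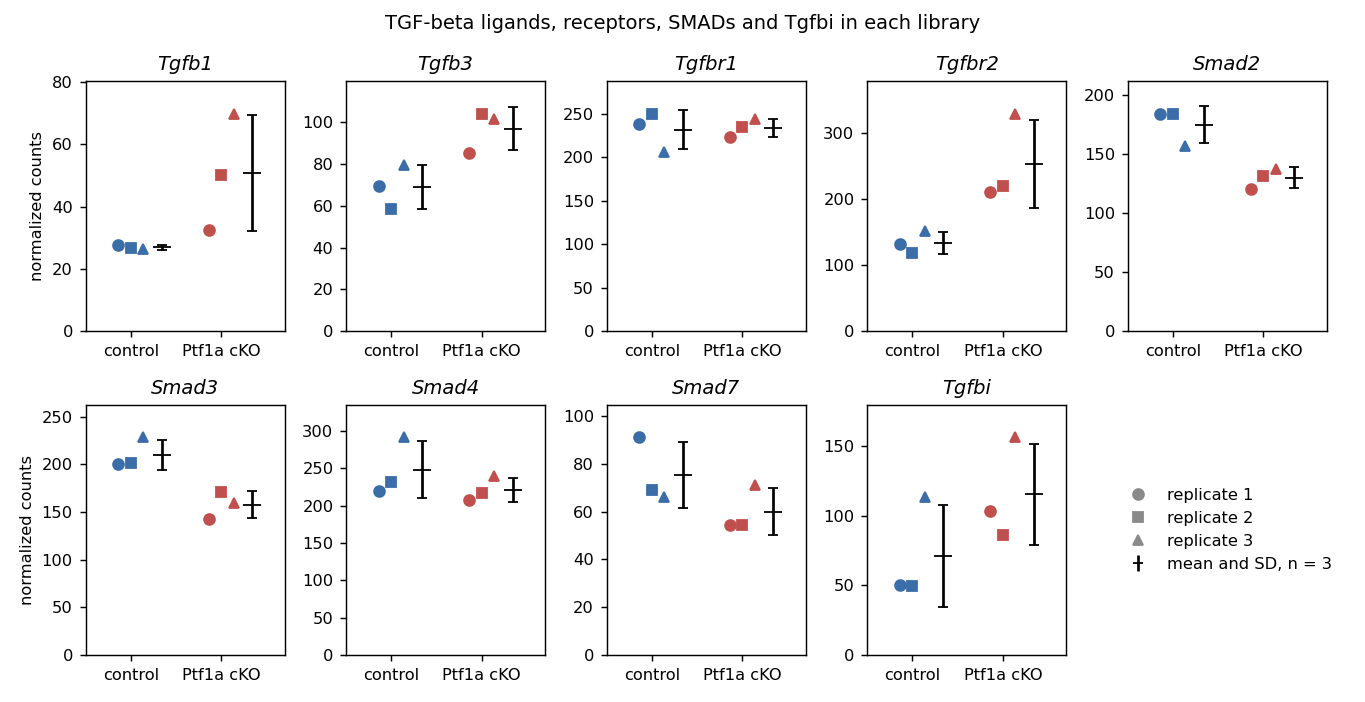
Normalized counts of the 9 measured genes (y axes from 0) in 3 control (blue) and 3 Ptf1a cKO (red) libraries, with the marker shape giving the replicate number and the black bar the mean and SD of 3 libraries. The Ptf1a cKO points lie above all controls for Tgfb1, Tgfb3 and Tgfbr2 and below all controls for Smad2 and Smad3 as scaled by the authors, and for Tgfb1 they spread from 32.6 to 69.8 while the controls lie between 26.2 and 27.8.

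Among the ligands, Tgfb1, the isoform most studied in tissue fibrosis, was listed at 27.8, 26.8 and 26.2 normalized counts in controls and at 32.6, 50.0 and 69.8 in Ptf1a cKO. The controls were nearly alike, with a mean of 26.9 ± 0.785 (SD, n = 3), and the Ptf1a cKO libraries were all above them but spread widely around a mean of 50.8 ± 18.6 (SD, n = 3). The log2 fold change was 0.78 with an SE of 0.27, and its adjusted p of 0.0520 by limma missed the threshold. Leaving out Ptf1a cKO replicate 1, the lowest of its group, gave 1.04 with an adjusted p of 0.0171, and leaving out Ptf1a cKO replicate 3, the highest, gave 0.53 with 0.170. Every gene in the table reached at least 27.6 normalized counts in some library, a level that the controls of Tgfb1 reached only in replicate 1.

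Tgfb3, a ligand made largely by mesenchymal cells, was measured at 69.4, 58.5 and 79.5 normalized counts in controls and at 85.0, 104 and 102 in Ptf1a cKO. The groups did not overlap, with Ptf1a cKO replicate 1 closest to control replicate 3. Tgfb3 rose 1.40-fold by the ratio of group means (log2 fold change 0.47, 95% confidence interval 0.12 to 0.82, adjusted p = 0.0430 by limma). The call was lost on leaving out control replicate 1 (adjusted p = 0.0952), control replicate 2 (0.142), Ptf1a cKO replicate 2 (0.104) or Ptf1a cKO replicate 3 (0.122). On the opposite strand the gene overlaps Ttll5, a tubulin-modifying enzyme, and since no source used here says that strand was counted, reads of the pair may not have been separated.

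Of the receptors, Tgfbr2 rose and Tgfbr1 did not pass. Tgfbr2, the type II receptor that binds ligand first, was measured at 132, 119 and 152 normalized counts in controls and at 211, 220.4 and 330.1 in Ptf1a cKO. All Ptf1a cKO libraries were above all controls, and replicate 3 was the highest. Tgfbr2 rose 1.89-fold (log2 fold change 0.88, SE 0.18, 95% confidence interval 0.47 to 1.29, adjusted p = 0.00617 by limma), the smallest adjusted p of the 9 genes. It passed with any library left out, at adjusted p between 0.00505 and 0.0291 and log2 fold changes between 0.68 and 1.00, and without Ptf1a cKO replicate 3 the log2 fold change was 0.68.

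Tgfbr1, the type I receptor with the kinase that acts on Smad2 and Smad3, was measured at 238, 250.1 and 207 normalized counts in controls and at 223, 235 and 244 in Ptf1a cKO. The Ptf1a cKO values lay within the range of the controls. Its log2 fold change of 0.02 had a 95% confidence interval from -0.25 to 0.28, so a change by the size seen for Tgfbr2 lies outside the interval (adjusted p = 0.926 by limma).

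Bases before the start sites of the receptors and of Smad3 are printed because these genes, which act in sequence, rose, did not pass and fell. RefSeq promoters (GRCm38.p6, a later build than the mm9 of the submitters' processing notes) were held for 6 of the 10 genes. In the 250 bases before the start, read 5′ to 3′ on the gene's strand, capitals mark the motifs CANNTG (the E-box, bound by Ptf1a with a partner), TGGGAA (a site of Rbpj, a subunit of the complex Ptf1a forms) and CAGAC (a short SMAD-binding sequence), searched on either strand. The windows are chr4:47352972-47353221 (plus strand, Tgfbr1), chr9:116175364-116175613 (minus strand, Tgfbr2) and chr9:63757995-63758244 (minus strand, Smad3).
Tgfbr1: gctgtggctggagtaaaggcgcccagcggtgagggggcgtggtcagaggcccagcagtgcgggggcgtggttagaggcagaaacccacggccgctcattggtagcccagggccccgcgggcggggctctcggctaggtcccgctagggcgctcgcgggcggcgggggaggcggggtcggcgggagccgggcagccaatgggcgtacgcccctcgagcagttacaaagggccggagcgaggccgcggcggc
Tgfbr2: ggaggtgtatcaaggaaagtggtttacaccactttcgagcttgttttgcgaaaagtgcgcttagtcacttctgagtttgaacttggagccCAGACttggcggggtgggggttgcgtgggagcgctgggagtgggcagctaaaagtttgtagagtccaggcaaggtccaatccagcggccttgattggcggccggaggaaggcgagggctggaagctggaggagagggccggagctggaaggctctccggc
Smad3: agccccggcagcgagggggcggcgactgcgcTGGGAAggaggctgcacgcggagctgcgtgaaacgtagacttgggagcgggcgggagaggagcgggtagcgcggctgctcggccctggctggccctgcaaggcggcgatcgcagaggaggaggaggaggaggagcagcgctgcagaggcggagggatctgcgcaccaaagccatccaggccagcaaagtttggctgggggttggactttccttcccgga
Tgfbr2 held 1 CAGAC, 160 bases before the start (-160), Smad3 held 1 TGGGAA at -219, and the printed window of Tgfbr1 held no match. For Tgfbr1 2 promoters were listed, and only the first along the chromosome is shown. None of these 3 windows, nor that of Tgfb1, held an E-box. Of 32851 promoter windows of the same length, 66.2% held CANNTG, 21.6% TGGGAA and 42.2% CAGAC. G and C made up 58.4% of the Tgfbr2 window, 69.2% of that of Smad3 and 74.8% of that of Tgfbr1. A match is a run of letters and no measured site, and no motif overlapped another here.

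The receptor-activated SMADs, Smad2 and Smad3, fell by similar amounts relative to the other genes. Smad2 was measured at 184, 184 and 157 normalized counts in controls and at 120.5, 132 and 137 in Ptf1a cKO. The lowest control, replicate 3, was above the highest Ptf1a cKO library. With the deposited scaling Smad2 fell to 0.743 of the control mean (log2 fold change -0.42, 95% confidence interval -0.69 to -0.15, adjusted p = 0.0263 by limma). Its call was lost without control replicate 1 (adjusted p = 0.0889), control replicate 2 (0.0923) or Ptf1a cKO replicate 1 (0.0878).

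Smad3, which unlike full-length Smad2 binds DNA directly, was measured at 200.4, 201 and 228 normalized counts in controls and at 142, 170.5 and 160 in Ptf1a cKO. Again no library of a group reached into the range of the other. Smad3 fell to 0.750 of the control mean on the same scaling (log2 fold change -0.41, 95% confidence interval -0.68 to -0.14, adjusted p = 0.0279 by limma). Only the fit without Ptf1a cKO replicate 2 kept the call (adjusted p = 0.0264). The fits without control replicates 1, 2 and 3 gave 0.0591, 0.0630 and 0.0662, and those without Ptf1a cKO replicates 1 and 3 gave 0.0957 and 0.0632, with log2 fold changes from -0.47 to -0.34 over the 6 fits.

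Smad4, the common partner of the receptor-activated SMADs, was measured at 220.2, 232 and 291 normalized counts in controls and at 208, 217 and 239 in Ptf1a cKO. Replicates 1 and 2 of Ptf1a cKO lay just below the lowest control, and replicate 3 lay between the controls. The means were 248 ± 38.2 and 222 ± 16.1 (SD, n = 3 each), and the log2 fold change of -0.15 had a 95% confidence interval from -0.45 to 0.15 (adjusted p = 0.410 by limma). Smad4 did not pass in any of the 6 fits without a library, at log2 fold changes from -0.23 to -0.03, with the latter on leaving out control replicate 3. A processed pseudogene lies within the Smad4 gene in the GRCm38 annotation, and how the authors' counting treated such reads is not given in the sources used here.

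Smad7, the inhibitory SMAD that brings ubiquitin ligases to the receptors, was measured at 91.1, 68.9 and 66.0 normalized counts in controls and at 54.5, 54.2 and 71.3 in Ptf1a cKO. Ptf1a cKO replicates 1 and 2 were below all controls and replicate 3 was above the lower controls. The log2 fold change of -0.31 had a 95% confidence interval from -0.71 to 0.09 (adjusted p = 0.208 by limma).

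Tgfbi, a secreted matrix protein named for its induction by TGF-beta, was measured at 50.2, 49.3 and 114 normalized counts in controls and at 104, 86.5 and 156 in Ptf1a cKO. Control replicate 3 lay above Ptf1a cKO replicates 1 and 2, and the groups overlapped for this reason alone. Tgfbi did not pass over all libraries (log2 fold change 0.74, SE 0.32, adjusted p = 0.104 by limma). Without control replicate 3 the log2 fold change was 1.12 with an adjusted p of 0.0141. Both libraries in which Tgfbi was highest, control replicate 3 and Ptf1a cKO replicate 3, were also the highest of their group for the summed fat, macrophage, lymphocyte, endothelial and endocrine markers, whose part in the value was not tested. Control replicate 3 was only slightly above control replicate 1 for macrophage (840.5 and 833.9), lymphocyte (105.4 and 104.2) and endothelial sums (1010 and 986).

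For a comparison between genes, normalized counts were divided by the exon length of each gene in kilobases (GENCODE M21, GRCm38). On this scale of levels per kilobase, Smad4 was the highest of the 9 genes in either group, at 66.8 ± 10.3 in controls and 59.7 ± 4.34 in Ptf1a cKO (SD, n = 3), and Tgfb1 had the lowest mean, at 5.34 ± 0.156 and 10.1 ± 3.69, though in Ptf1a cKO its libraries (6.46 to 13.8) overlapped those of Smad7 (12.0 to 15.8) and Smad2. Below Smad4 in controls came Smad3 (37.9 ± 2.84) and Tgfbr1 (35.5 ± 3.45), whose libraries overlapped. Tgfb3, Smad2, Tgfbi, Smad7 and Tgfbr2 followed at means from 20.4 down to 16.4, with neighbours in this order overlapping at every step. In Ptf1a cKO, Tgfbr1 (35.8 ± 1.59) came after Smad4, then Tgfbr2 (31.0 ± 8.10), Tgfbi (30.6 ± 9.67), Tgfb3 (28.6 ± 3.07) and Smad3 (28.4 ± 2.56), again with overlap from each to the next. Smad2 (14.8 ± 0.985) and Smad7 (13.3 ± 2.17) lay below these, so Smad2 and Tgfbr2, whose control libraries ranged from 17.8 to 21.0 and from 14.5 to 18.5, were at 13.7 to 15.7 and 25.7 to 40.3 in Ptf1a cKO.

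How the libraries are scaled moved all 9 values together. With every library at the same total, all 9 genes were higher in Ptf1a cKO at an adjusted p under 0.05, Smad2, Smad3, Smad4 and Smad7 included, and with the same total taken without the 28 abundant genes Tgfb1, Tgfb3, Tgfbr2 and Tgfbi were higher and none was lower. Measured against the median gene of each scaling, the differences hardly moved. This follows from the arithmetic, since a scaling divides all genes of a library by 1 factor and only the pseudocount lets the differences move. Tgfbr2 was 0.84 above the median gene on the log2 scale with the deposited scaling and 0.86 above it at the same total, Smad2 was 0.45 and 0.44 below it (-0.45 and -0.44), and Smad4 was at -0.19 and -0.16. For Tgfb1 the corresponding values were 0.74 and 0.67. The falls of Smad2 and Smad3 are therefore stated relative to the other genes.

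**Figure D2:**
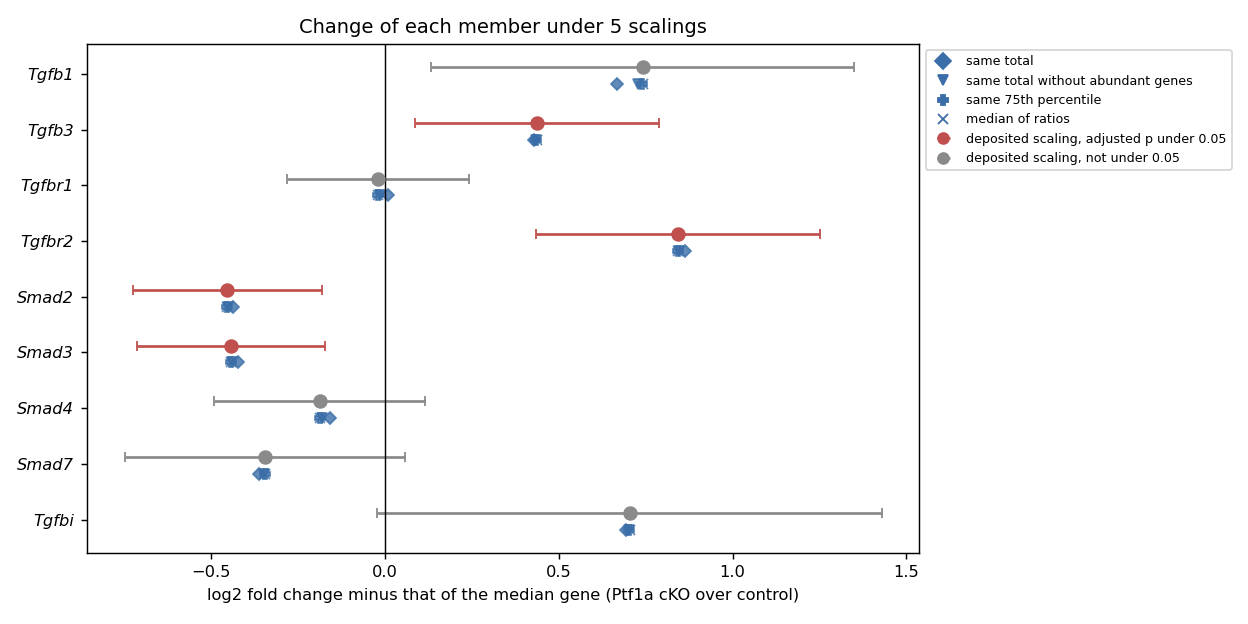
Log2 fold change of each gene in Ptf1a cKO over control minus that of the median gene (x axis), with the 95% confidence interval of the fit for the deposited scaling (circles, red where the adjusted p was under 0.05) and the values under 4 other scalings (blue marks), of which the total without abundant genes leaves out 28 genes. The blue marks sit close to their circle for all 9 genes, with Tgfbr2 at 0.84 and Smad2 at -0.45 with the deposited scaling. That closeness follows from subtracting the median gene, which takes out the factor of each library apart from the pseudocount.

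Ratios of a pair of genes within a library do not depend on the scaling between libraries. The receptor ratio Tgfbr2 to Tgfbr1 was 0.554, 0.476 and 0.734 in controls and 0.945, 0.939 and 1.35 in Ptf1a cKO, so the libraries of the groups did not overlap. On the log2 scale the ratio differed by 0.88, with an exact two-sided permutation p of 0.1 (0.267 after Benjamini-Hochberg adjustment over the 8 ratios computed), and 0.1 is the smallest p that 3 against 3 libraries allow. Tgfbr2 to Smad4 went from 0.599, 0.513 and 0.521 to 1.01, 1.02 and 1.38, a log2 difference of 1.05 with the same p.

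Tgfb1 to Smad4 was 0.126, 0.116 and 0.0900 in controls and 0.156, 0.230 and 0.291 in Ptf1a cKO. These did not overlap either, and the log2 difference was 1.00, again with an exact permutation p of 0.1 and an adjusted p of 0.267. Smad2 to Smad3 was alike in the groups, at 0.839 ± 0.132 in controls and 0.826 ± 0.0474 in Ptf1a cKO (SD, n = 3), a log2 difference of -0.011. Smad3 to Smad4 (0.854 ± 0.0649 and 0.712 ± 0.0640), Smad7 to Smad4 (0.312 ± 0.0946 and 0.270 ± 0.0250), Tgfb3 to Tgfb1 and Tgfbi to Tgfb1 overlapped between the groups, with log2 differences from -0.35 to -0.07. Of these, Smad3 to Smad4 came closest to separating, with Ptf1a cKO replicate 2 (0.786) just above control replicate 3 (0.783).

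**Figure D3:**
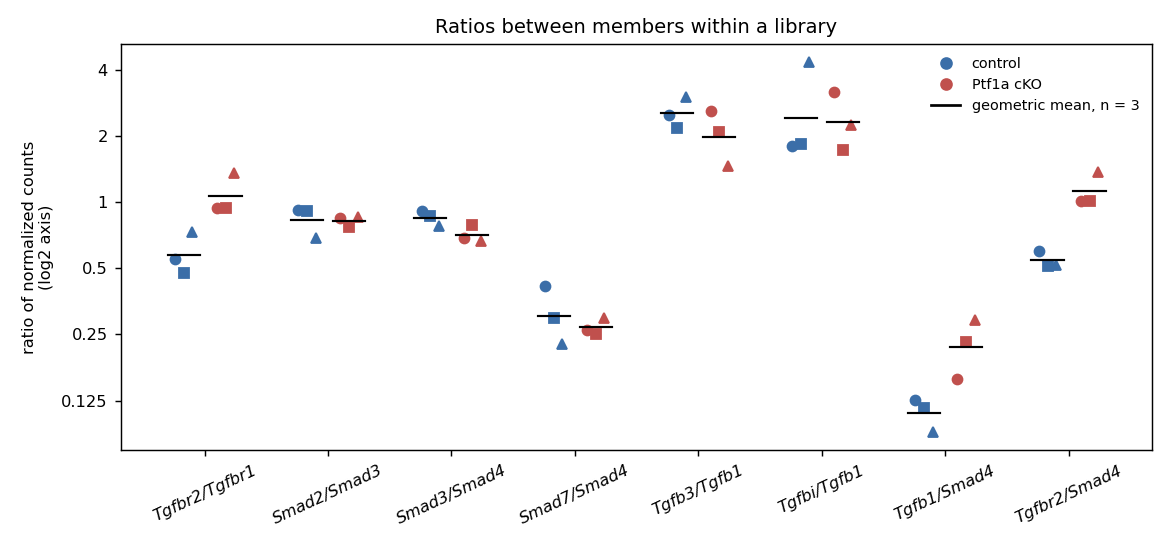
Ratios of normalized counts between pairs of the genes within each library (y axis, log2), for 3 control (blue) and 3 Ptf1a cKO (red) libraries, with the geometric mean as a bar. Tgfbr2 to Tgfbr1, Tgfb1 to Smad4 and Tgfbr2 to Smad4 are higher in all 3 Ptf1a cKO libraries than in all controls, and the other 5 ratios overlap.

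Likeness of pattern was measured as the root mean square difference between log2 values over the 6 libraries, after each gene was centred on its own mean, so that 0 is the same pattern. Closest to Tgfb1 were Cmklr1, the chemerin receptor, at 0.074, Glb1, the lysosomal beta-galactosidase, at 0.11 and Rest, a transcriptional repressor, at 0.11. The median gene was 0.53 away from Tgfb1. Cmklr1 was measured at 30.1, 29.1 and 27.3 normalized counts in controls and at 38.9, 57.2 and 70.5 in Ptf1a cKO, the same order of libraries as Tgfb1. Closest to Tgfbr2 were Cd163, a scavenger receptor of macrophages, at 0.061, Cerk, ceramide kinase, at 0.068 and Per1, a clock gene, at 0.075. Cd163 is also on the macrophage marker list described with the cell markers. Smad4 was most like Med19, a Mediator subunit, at 0.022 and Faah, an enzyme that degrades endocannabinoids, at 0.031, where the median gene was at 0.30. Among the 9 genes themselves, Tgfb1 and Tgfbr2 were nearest to each other at 0.19, and Smad3 was nearest to Smad4 at 0.16. In each of these patterns the 6 points share the libraries and their scaling. The closest genes were picked by this distance from the whole table, so their lying nearer than the median gene follows from the choice.

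Genes around these 9 were taken from 5 lists of the pathway. Together the lists held 129 genes, of which 95 had a row. Of the 95, 35 rose (36.8%, beside 17.1% of all genes) and 9 fell (9.47%, beside 16.8%). Their median log2 fold change was 0.32, beside 0.02 for the 9 genes and 0.036 for all genes. With every library at the same total, where the median gene was at 1.49, 89 of the 95 (93.7%) were higher and none was lower. Over all genes 93.6% were higher and 1.26% lower on that scaling. Each fall named from these lists is therefore a fall on the deposited scaling and relative to other genes. At the same total only Bmp3 and Myc, of the 9 that fell, kept a negative log2 fold change (-0.42 and -0.21), and neither passed.

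Latency and activation of the ligands was the list with the steepest single change. Of 15 listed genes in the table (of 19), 8 rose and none fell, a share of 53.3% beside 17.1% of all genes, and their median log2 fold change was 0.61. Thbs1, a matrix protein able to release active TGF-beta, was measured at 127, 225 and 167 normalized counts in controls and at 8755, 7183 and 3804 in Ptf1a cKO, a log2 fold change of 5.18 ± 0.30 (SE). Furin, the protease that cuts the TGF-beta precursor, went from 1039, 1053 and 1043 to 5643, 3502 and 5243, a log2 fold change of 2.16 with an SE of 0.18. Neither gene had overlapping groups.

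Itgb6, the epithelial integrin chain that pairs with Itgav to bind the latent complex, rose by 1.81 on the log2 scale from a low level (16.2, 18.5 and 13.2 normalized counts in controls, 65.0, 38.7 and 104 in Ptf1a cKO). Its controls all lay below the 27.6 normalized counts that every gene in the table reached in some library. Itgb6 thus has its row through its Ptf1a cKO values alone, which limits what its rise shows. Mmp14, a membrane metalloprotease, rose by 1.12. Itgav itself, at 126, 112 and 127 in controls and 116, 148 and 141 in Ptf1a cKO, did not pass (log2 fold change 0.14), nor did Lrrc32, which holds latent TGF-beta on the cell surface (0.32). The latent binding proteins divided, with Ltbp4 rising by 0.77 while Ltbp1 (0.27) and Ltbp3 (0.16) did not pass.

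Co-receptors and other modulators at the membrane had a row for 16 of 18 genes. Of these, 6 (37.5%, beside 17.1% of all genes) rose and none fell, with a median of 0.37. Without control replicate 2, 3 rose, and without Ptf1a cKO replicate 2, 5 rose and 1 fell. Over all genes the first of these fits gave 11.5% higher and 11.5% lower, and the second 18.1% and 17.1%. Bgn (biglycan) rose by 1.05 and Dcn (decorin) by 0.74, both matrix proteoglycans that bind TGF-beta. Tgfbr3, the betaglycan co-receptor that presents ligand to Tgfbr2, was measured at 54.2, 38.7 and 52.7 normalized counts in controls and at 76.1, 84.7 and 107 in Ptf1a cKO, a rise of 0.84 on the log2 scale (SE 0.19, adjusted p = 0.00889 by limma). As with Tgfbr2, the groups did not overlap and Ptf1a cKO replicate 3 was the highest. Acvrl1, a type I receptor of endothelial cells, rose by 0.60, and its partner Eng did not pass, with a log2 fold change of -0.24.

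SMAD regulators had 21 of 24 genes in the table. Beside 17.1% and 16.8% of all genes, 3 (14.3%) of these rose and 2 (9.52%) fell around a median of -0.07. The rises were Wwp1 by 1.45 and Nedd4l by 1.21, ubiquitin ligases of the family that acts on SMADs and receptors, and Tgif1, a co-repressor of SMAD complexes, by 1.04. The related ligases Smurf1 (-0.26) and Smurf2 (-0.07) did not pass. Smad6, the inhibitory SMAD of the BMP arm, was measured at 69.5, 63.0 and 80.5 normalized counts in controls and at 26.6, 51.5 and 37.3 in Ptf1a cKO. It fell by 0.87 on the log2 scale (adjusted p = 0.0196 by limma) with no overlap between the groups. Tob1, an antiproliferative protein that can bind SMADs, fell by 0.77. Without Ptf1a cKO replicate 1, 5 genes of the list rose and 1 fell, and 1 fell also without control replicate 1 or control replicate 3. Calls over all genes were also fewer in these fits. Without Ptf1a cKO replicate 1, 12.9% were higher. The share lower ranged from 11.7% without control replicate 1 to 15.4% without control replicate 3.

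Signalling by BMP and activin shares Smad4 with TGF-beta. Of 33 listed genes 17 were in the table. Of the 17, 3 rose (17.6%, beside 17.1% of all genes) and 4 fell (23.5%, beside 16.8%) around a median of -0.15. Among the ligands, Bmp3 fell by 1.86 and Bmp7 by 0.74, while Gdf10 rose by 0.93. Sostdc1, a secreted BMP antagonist, fell by 1.35 and Fstl1, a secreted follistatin-like protein, rose by 0.94. The receptor Bmpr1a rose by 0.72. Of the transcriptional targets of BMP, Id1 fell by 0.88, and Id2 (-0.10) and Id3 (-0.15) did not pass. Without Ptf1a cKO replicate 3 the median of the list was -0.34 and without control replicate 2 it was -0.34 as well.

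Genes known to respond to TGF-beta had 26 of 35 in the table. Of the 26, 15 rose (57.7%, beside 17.1% of all genes) and 3 fell (11.5%, beside 16.8%), with a median of 1.02. Many of the rising genes are matrix genes of fibroblasts. Col1a1 was measured at 229, 216 and 284 normalized counts in controls and at 584, 1419 and 1033 in Ptf1a cKO, a log2 fold change of 1.96 with an SE of 0.28. Col1a2 rose by 1.66, Klf11, a transcription factor induced early by TGF-beta, by 1.96 and Jun, a subunit of AP-1, by 1.58. Klf11 rested on low controls (18.4, 16.3 and 4.69). They all lay below the 27.6 normalized counts that every gene reached in some library, so Klf11 too has its row through Ptf1a cKO alone. Ptf1a cKO replicate 2 was the highest library for Col1a1 and for Col1a2, as it was for Tgfb3, and replicate 3 was the highest for Tgfb1, Tgfbr2 and Tgfbi.

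On the falling side, Myc, which TGF-beta represses in many epithelial cells, went from 377, 343 and 258 to 67.9, 128 and 110.3 normalized counts, a fall by 1.67 on the log2 scale. Pdgfb fell by 0.70 and Tsc22d1 by 0.45. Klf10 (-0.16), Tgfb1i1 (-0.08) and Vegfa (-0.18), also known to respond to TGF-beta, did not pass. Without control replicate 1, 9 genes of this list rose and 2 fell, with a median of 0.95, and without Ptf1a cKO replicate 3, 10 rose and 3 fell, with a median of 0.78. Calls over all genes were also fewer in these fits. The first gave 12.0% higher and 11.7% lower, and the second 11.5% and 12.3%.

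**Figure D4:**
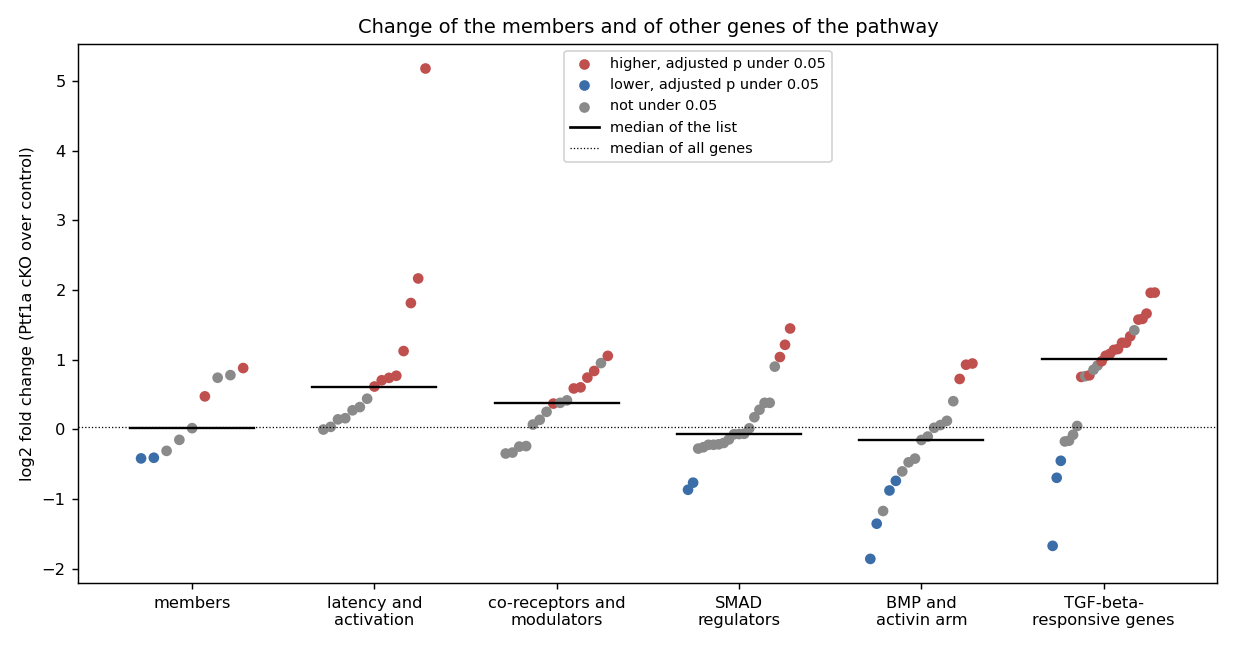
Log2 fold change in Ptf1a cKO over control (y axis) of the 9 genes, shown as members, and of the genes of 5 pathway lists, 1 point a gene, red and blue where the adjusted p was under 0.05 and the gene was higher or lower. Bars are list medians, at 0.02 for the 9 genes, 0.61 for latency and activation and 1.02 for TGF-beta-responsive genes, and the dotted line is the median of all genes at 0.036.

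Markers of the cell types in the pancreas moved at the same time, and their part in the values of the 9 genes was not tested. All 9 genes can be expressed by more than 1 of these cell types. Of 13 acinar enzymes 11 fell (84.6%, beside 16.8% of all genes). The summed level of the 13 in Ptf1a cKO was between 0.107 and 0.333 of the control mean. Of 11 measured duct markers 6 rose (54.5%, beside 17.1% of all genes). Sox9 was among them, from 131, 136 and 109 to 625, 633 and 516 normalized counts, and Krt19 did not pass (log2 fold change -0.01).

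Fibroblast and stellate markers rose in 8 of 12 cases (66.7%, beside 17.1% of all genes), with sums of 4674 to 5037 normalized counts in controls and 6336 to 8094 in Ptf1a cKO. Pdgfra was among them and Pdgfrb was not. Macrophage and myeloid markers rose in 8 of 9 (88.9%), with sums of 542 to 840.5 in controls and 1371 to 2309 in Ptf1a cKO, highest in replicate 3 as for Tgfb1 and Tgfbr2. Cd14 among these, like Cldn4 among the duct markers, had controls all below 27.6 normalized counts and has its row through Ptf1a cKO alone. Of 3 smooth muscle markers 2, Myh11 and Des, rose (66.7%, beside 17.1% of all genes). Des is also counted among the fibroblast and stellate markers, as is Dcn of the modulator list, so these counts share genes.

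None of 5 lymphocyte markers passed by limma, with 1 at an unadjusted p under 0.05, and Cd3e, Cd3g, Cd8a, Cd79a and Ms4a1 were not analysed here. Their sum was 40.1 to 105 normalized counts in controls, 117 and 79.9 in Ptf1a cKO replicates 1 and 2 and 810 in replicate 3, the library in which Tgfb1 and Tgfbr2 were highest. Of 8 endothelial markers only Vwf rose (12.5%, beside 17.1% of all genes). None of the 7 endocrine and 4 fat markers passed by limma, with 0 at an unadjusted p under 0.05, and the endocrine sum was highest in control replicate 3 at 1.94 times the control mean. Without Ptf1a cKO replicate 2, 3 endocrine markers, 1 lymphocyte marker and 2 endothelial markers rose, and without Ptf1a cKO replicate 1, 1 fat marker did. Without Ptf1a cKO replicate 3 or control replicate 2 no endothelial marker and 1 smooth muscle marker rose, and 1 smooth muscle marker rose without Ptf1a cKO replicate 1 or control replicate 1. Over all genes 18.1% rose without Ptf1a cKO replicate 2. Without Ptf1a cKO replicate 1 or 3, or control replicate 1 or 2, this share was 11.5% to 12.9%.

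**Figure D5:**
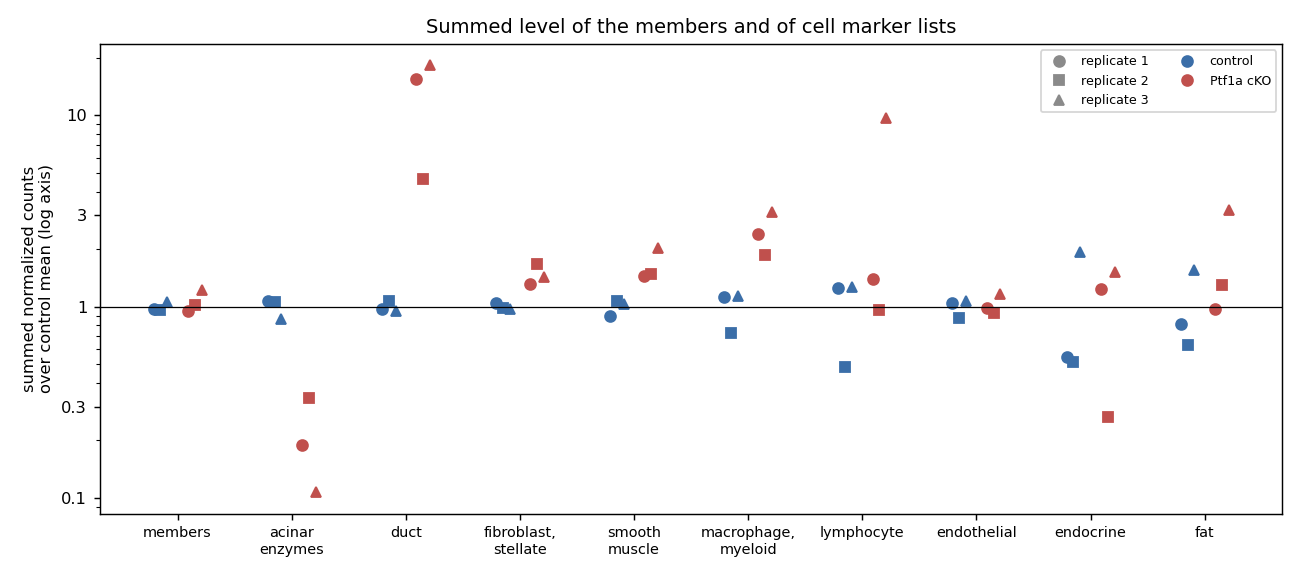
Summed normalized counts of the 9 genes, shown as members, and of each cell marker list in every library, divided by the mean of the 3 controls (y axis, log scale), with blue for control, red for Ptf1a cKO and the shape giving the replicate. The 9 genes together stay between 0.951 and 1.22 in Ptf1a cKO, acinar enzymes lie between 0.107 and 0.333, and the lymphocyte sum of replicate 3 lies at 9.73.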

How the data were processed

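Single-end reads of 50 nucleotides from whole-pancreas RNA were aligned by the authors. The submitters' processing notes name TopHat2 2.0.4, Bowtie 0.12.7.0, SAMtools 0.1.18.0, HTSeq 0.6.0 and the mouse build mm9, and the study used edgeR with TMM normalization. The deposited table holds 1 signal value per gene symbol and library, namely normalized counts that the authors scaled across the 6 libraries. They are not whole, and whole reads could not be recovered, so, although the study's methods give the aligned reads of each library, the depth behind a value cannot be read from the table, no counting interval is given and edgeR and DESeq2 were not run. Tgfb2 was not analysed here. Another 3 rows hold read totals that belong to no gene. They were left out, at 75.7% to 82.6% of each library's sum.

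Dividing by 13.6393 and adding a pseudocount of 0.25, which stands for 3.41 normalized counts and understates folds of low genes, came before the log2 step. The filter, a minimum mean of 0.25, took away 0 genes. Groups were compared with limma 3.58.1 in R 4.3.3, using its trend option and genotype alone. P-values are two-sided, Benjamini-Hochberg adjusted over all 10245 genes, with a threshold of 0.05. Exact permutation tests used SciPy 1.17.1. The mice are separate animals. The fit was tested on simulated data.

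The 9 genes and all lists were chosen with earlier results of these data known. Text names all 9 genes, up to 4 rises and 4 falls per pathway list past the threshold by size, the 3 genes most like Tgfb1, Smad4 and Tgfbr2, and Ptf1a. Not every result under this rule is reported here. Other genes named from the lists were chosen after their values were seen. Alternatives were pseudocounts of 0.05 and 1, filters, 4 other scalings (same total, same total without 28 genes that are on the acinar list or over 1% of any library, same 75th percentile, median of ratios), limma without trend or with robust estimation, sex as a covariate, the replicate number as a block, and each library left out in turn.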

Additional observations from a re-analysis of the deposited data

How the results depend on the processing

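Tgfbr2 kept its direction and call under all 18 alternatives; the other calls among the 9 genes did not. Of the 9 genes, 2 were higher and 2 lower as reported. With every library at the same total, 9 were higher and 0 lower, with log2 fold changes reversed to 1.05 for Smad2, 1.06 for Smad3, 1.33 for Smad4 and 1.12 for Smad7; over all genes 9590 were higher and 129 lower, against 1751 and 1724. With the same total without the 28 abundant genes, digestive enzymes and others, 4 were higher and 0 lower, and over all genes 3553 and 957. A minimum mean of 5 (which drops Tgfb1 and Smad7), the median of ratios and sex as a covariate each left 1 higher, as Tgfb3 went to adjusted p of 0.0507, 0.0534 and 0.0552 by limma. Tgfb1 passed at the same 75th percentile (0.0444), with robust estimation (0.0448) and without trend (0.0470). Leaving out each library in turn left 1 to 3 higher and 0 to 2 lower. Over all genes these fits gave 11.5% to 18.1% higher and 11.5% to 17.1% lower.

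Whether the replicate numbers pair the mice was not settled. Deviations of same-numbered libraries correlated at 0.039, 0.13 and 0.14, and those of differently numbered libraries at -0.20 to 0.083. With the replicate block, 1814 genes were higher and 1711 lower, Tgfb3 had an adjusted p of 0.0517 and Tgfbi one of 0.00905.

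List medians at the same total were 2.09 for latency and activation, 1.85 for co-receptors, 1.41 for SMAD regulators, 1.26 for the BMP and activin arm and 2.43 for responsive genes, where the median gene was at 1.49. With each library left out they ranged from 0.44 to 0.71, 0.23 to 0.47, -0.12 to -0.03, -0.34 to -0.069 and 0.78 to 1.24. Calls in the lists without single libraries and under other scalings were added after seeing the data. Count models were not run, since whole reads could not be recovered. The scaled values do not show the reads behind them, and precision rests on 3 mice a group.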
